A study of Mus musculus with 8 samples.

Results

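The 9 genes described here encode the amino acid transporters Slc7a5, Slc3a2, Slc1a5, Slc7a1, Slc7a6, Slc38a1, Slc38a2, Slc1a4 and Slc38a9, and each matched 1 of the 55359 gene IDs in the deposited tables. They were chosen by name, with their levels in both groups already known, so their differences between the groups, with errors from a fit over all genes, are a description and not a test. RNA was sequenced from 8 samples of mouse thymocytes sorted as CD4 and CD8 double positive cells with absent to intermediate surface TCR beta, at 5 weeks of age. The 4 Lck-cre samples (replicates 5 to 8) carried LSL-Sting1-N153S together with Lck-cre, a transgene that places Cre recombinase under the promoter of the T cell kinase gene Lck. The 4 control samples (replicates 1 to 4) were LSL-Sting1-N153S/+ and carried no Cre. All samples therefore hold the LSL allele, in which a stop cassette flanked by loxP sites precedes a STING sequence with the N153S change. The labels do not give the number of LSL alleles in the Lck-cre samples. No group carried Cre without the allele, so effects of Cre and of the released allele cannot be told apart. Each group held 1 female, replicate 5 in Lck-cre and replicate 1 in the controls, and 3 males. The labels do not state that the samples are separate animals, and p-values therefore cover only the spread between the samples, which may be technical.

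Amino acid transporters sit in the plasma membrane and in organelle membranes, and T cell precursors depend on them to build protein and nucleotides as they divide. Slc3a2 (CD98 heavy chain) is a glycoprotein that carries light chains of the Slc7 family to the cell surface, among them Slc7a5 (LAT1), which exchanges leucine and other large neutral amino acids for intracellular glutamine. Glutamine enters through carriers such as Slc1a5 (ASCT2) and the sodium-coupled Slc38a1 and Slc38a2. At the lysosome, Slc38a9 senses luminal arginine and passes that state to the Rag GTPases, which bring the growth kinase complex mTORC1 to the lysosomal surface.

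Values are FPKM, a unit that divides a gene's fragments by its length and by the size of the library. In the check of the labels, Sting1 had 221, 85.4, 130 and 232 FPKM in Lck-cre replicates 5 to 8, against 15.3, 11.6, 13.4 and 11.9 FPKM in control replicates 1 to 4. Each sample listed 22809 to 23443 genes above 0. The FPKM of all genes summed to between 437778 and 457145 in the Lck-cre samples, and to between 413835 and 437426 in the controls. The tables give no counts, so the depth is unknown. All 8 markers of double positive thymocytes, among them Cd4, Cd8a and Rag1, were expressed, and their levels summed to 4050 to 5260 FPKM in Lck-cre, against 5250 to 5600 FPKM in the controls. In bulk samples, fewer cells of a type and less RNA per cell cannot be told apart.

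Promoters of members are shown first, as the sequence context of genes with higher and with lower levels in Lck-cre. RefSeq promoter sequences on GRCm38.p6, each with 250 bases before and 50 after a transcription start, matched 6 of the 9 members and gave 8 windows. The 3 sequences below belong to 2 members with a higher level in Lck-cre and 1 with a lower level, in that order. They hold the 250 bases before the start, on the gene's strand, with each GC box (GGGCGG or its complement CCGCCC, a motif that Sp family factors bind) in capitals. Slc3a2 lies at chr19:8713898-8714147 on the minus strand, Slc7a1 at chr5:148399905-148400154 on the minus strand, and Slc38a9 at chr13:112660516-112660765 on the plus strand.
Slc3a2: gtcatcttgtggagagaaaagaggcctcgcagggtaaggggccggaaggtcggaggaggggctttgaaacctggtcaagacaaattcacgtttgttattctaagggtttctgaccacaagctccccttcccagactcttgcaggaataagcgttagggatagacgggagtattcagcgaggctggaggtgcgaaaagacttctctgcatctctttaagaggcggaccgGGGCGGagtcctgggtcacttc
Slc7a1: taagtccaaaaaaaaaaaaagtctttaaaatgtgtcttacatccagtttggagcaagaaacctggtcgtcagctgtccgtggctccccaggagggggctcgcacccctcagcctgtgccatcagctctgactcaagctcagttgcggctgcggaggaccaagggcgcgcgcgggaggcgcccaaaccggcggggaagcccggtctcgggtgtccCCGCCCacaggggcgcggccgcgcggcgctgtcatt
Slc38a9: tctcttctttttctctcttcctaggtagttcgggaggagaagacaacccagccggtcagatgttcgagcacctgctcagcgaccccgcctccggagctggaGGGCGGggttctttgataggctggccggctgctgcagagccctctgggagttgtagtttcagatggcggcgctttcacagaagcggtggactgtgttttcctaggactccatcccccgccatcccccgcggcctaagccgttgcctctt

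A GC box stood in 7 of the members' 8 windows, and in 35.7% of 32851 RefSeq promoter windows of the same length. Those windows cover genes whether or not expressed in these samples and are not matched for base composition, so nothing is read from the contrast. The windows of Slc7a6 overlap and hold the same GC box, which is counted in both. The 7 include windows of Slc7a6 and Slc38a2, whose groups overlapped in level. The window without a GC box belongs to another start of Slc7a1, whose sequence is not shown. The C/EBP-ATF response element, searched as TGATGNAA on both strands, is known as a site through which ATF4 acts on amino acid transport and synthesis genes. It occurred in 3.97% of all windows and, among the members, in the window of Slc1a4. These 30 bases across the Slc1a4 start, chr11:20332699-20332728 on the minus strand, show that element in capitals.
Slc1a4: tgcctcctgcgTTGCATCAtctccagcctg
The E-box CACGTG, which MYC binds, stood in 7.15% of all windows and in none of the members' windows. No match says only that these letters are not in the windows searched, and a match is not evidence of binding.

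The members spanned a wide range of levels, and Slc38a2 and Slc1a5 together made up most of their summed FPKM. In all 4 Lck-cre samples the order was Slc38a2, Slc1a5, Slc3a2, Slc38a1, Slc7a6, Slc7a5, Slc38a9, Slc7a1 and, far below, Slc1a4. In all 4 controls Slc38a9 stood above Slc7a5, the reverse of their order in Lck-cre, and in control replicate 1 Slc1a5 stood above Slc38a2. Averaged over the 8 samples, Slc38a2 lay at the 96.3 percentile of the 12337 genes tested, Slc1a5 at 95.1, Slc3a2 at 87.4, Slc7a5 at 54.4 and Slc7a1 at 40.3. Neighbours in the order that overlapped in the controls were Slc38a2, at 127 to 145 FPKM, and Slc1a5, at 106 to 136 FPKM. The summed level of the 9 genes was 448.7 ± 26.5 FPKM in Lck-cre and 422.0 ± 12.7 FPKM in the controls (SD, n = 4 each). Slc38a2 and Slc1a5 held 59.98% ± 1.86 of that sum in Lck-cre and 62.1% ± 1.44 in the controls.

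**Figure D1:**
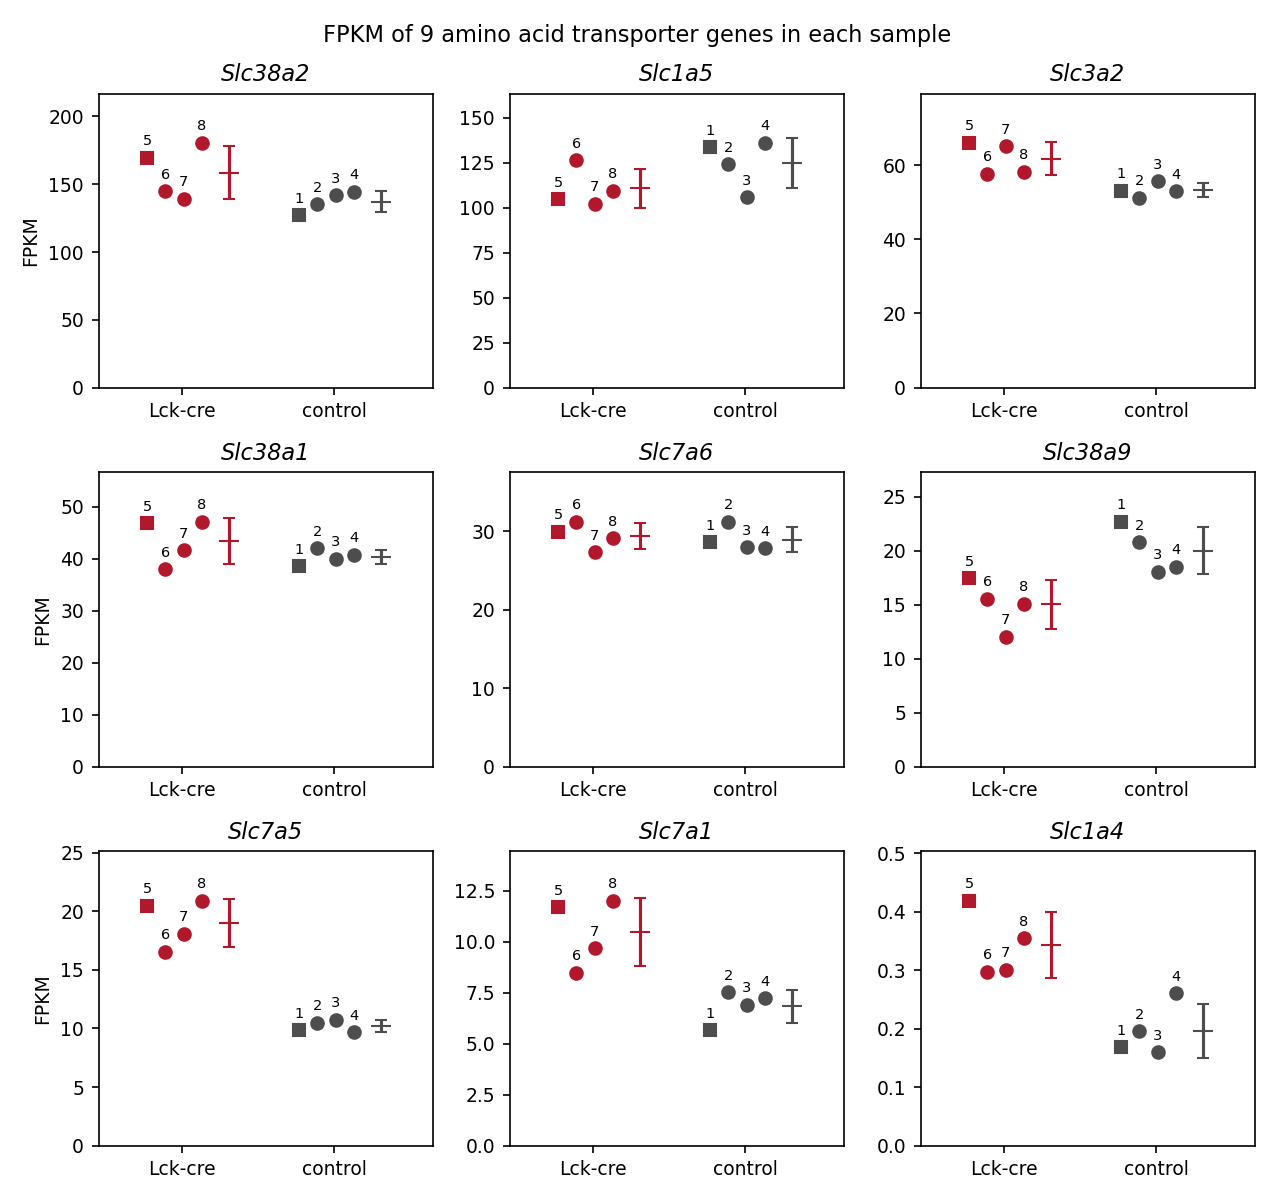
Level of each of the 9 amino acid transporters in FPKM, 1 panel a gene, with Lck-cre to the left of control; points are samples (squares female, circles male) and bars are the mean ± SD of 4 samples. Slc7a5 was at 16.55 to 20.9 FPKM in Lck-cre, against 9.67 to 10.8 FPKM in the controls, while the groups of Slc7a6 overlapped at 27.4 to 31.3 FPKM and 27.8 to 31.3 FPKM.

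A gene was tested if it reached 1 FPKM in at least 4 samples, and 8 of the 9 members did so, Slc1a4 being the exception. A gene was called where limma, fitted on log2(FPKM + 0.5) over all 12337 tested genes with terms for sex and genotype, gave a Benjamini-Hochberg adjusted p under 0.05. In this fit 25.8% of all tested genes were called, 15.4% higher and 10.4% lower in Lck-cre. Of the 8 tested members, 4 were called, Slc7a5, Slc3a2 and Slc7a1 as higher and Slc38a9 as lower, and nothing is read from this count, since the members were chosen on the same contrast. The median log2 difference, Lck-cre minus control throughout, was 0.15 over the 8 tested members and 0.01 over all tested genes. With TPM in place of FPKM, the split over all tested genes was 1300 higher and 2067 lower, against 1901 higher and 1279 lower with FPKM. The count of called members was 3 with TPM, with Slc3a2 lost, where 27.3% of all tested genes were called. It was 1, Slc7a5, in males only, where 5.28% of all tested genes were called, and again 1, Slc7a5, without the filter on low values, where 3.66% of 28851 genes were called.

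The light chain Slc7a5 (ENSMUSG00000040010.11, chromosome 8, 122607889 to 122634433 on the minus strand in the files' coordinates, whose build is not named) had the largest difference of the tested members. It had 20.5, 16.55, 18.1 and 20.9 FPKM in Lck-cre replicates 5 to 8, against 9.84, 10.5, 10.8 and 9.67 FPKM in control replicates 1 to 4. All Lck-cre samples lay above all controls, and the controls differed little among themselves. The means were 19.0 ± 2.06 FPKM in Lck-cre and 10.2 ± 0.521 FPKM in the controls (SD, n = 4 each), a ratio of 1.86. On the log2(FPKM + 0.5) scale the difference was 0.86 with an SE of 0.088 and a 95% interval of 0.66 to 1.06. The groups were also apart in TPM, a unit that sums to the same total in every sample, where the ratio was 1.77, and in the deposited read coverage. Under the 17 alternatives the log2 difference was 0.81 to 0.93. The files list Galnt2l on the opposite strand across the whole of Slc7a5, at 0 FPKM in all 8 samples.

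The heavy chain Slc3a2 (ENSMUSG00000010095.14, chromosome 19, 8684246 to 8700733 on the minus strand) stood several times above its partner Slc7a5 in both groups and differed less. It had 66.1, 57.6, 65.0 and 58.1 FPKM in Lck-cre replicates 5 to 8, against 53.1, 51.1, 55.6 and 53.0 FPKM in control replicates 1 to 4. The groups did not overlap in FPKM, with a narrow gap between the highest control and the lowest Lck-cre sample, and they overlapped in coverage. The means were 61.7 ± 4.45 FPKM in Lck-cre and 53.2 ± 1.85 FPKM in the controls, a log2 difference of 0.21 with an SE of 0.065. Under the 17 alternatives the log2 difference was 0.14 to 0.24, and the call was lost under 11 of them.

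Slc7a6 (y+LAT2; ENSMUSG00000031904.6, chromosome 8, 106895489 to 106925338 on the plus strand), a light chain that exports cationic amino acids for neutral ones, did not separate the groups. It had 29.99, 31.3, 27.4 and 29.1 FPKM in Lck-cre replicates 5 to 8, against 28.6, 31.3, 28.0 and 27.8 FPKM in control replicates 1 to 4. The log2 difference of 0.02, with an SE of 0.068 and a 95% interval of -0.13 to 0.18, changed sign with quantile normalization, with TPM and without Lck-cre replicate 6.

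The ratio of Slc7a5 to Slc3a2 transcripts differed between the groups. These are ratios of FPKM, and the proteins and their complexes were not measured. Slc7a5 had 0.310, 0.287, 0.278 and 0.360 FPKM per FPKM of Slc3a2 in Lck-cre replicates 5 to 8, against 0.185, 0.205, 0.194 and 0.183 in control replicates 1 to 4. Every Lck-cre ratio was above every control ratio. The 6 light chain genes known to pair with Slc3a2 (Slc7a5, Slc7a6, Slc7a7, Slc7a8, Slc7a10 and Slc7a11) summed to 59.7 ± 3.16 FPKM in Lck-cre and 56.1 ± 2.58 FPKM in the controls. Per FPKM of Slc3a2 that sum was 0.971 ± 0.0891 in Lck-cre and 1.055 ± 0.0697 in the controls, with overlapping groups. What differed was the makeup of the sum. Slc7a5 held 32.6, 26.8, 32.3 and 35.9% of it in Lck-cre replicates 5 to 8, against 17.6, 17.8, 19.0 and 18.3% in control replicates 1 to 4. Slc7a11 (xCT), the light chain that exchanges cystine for glutamate, held 17.8, 20.25, 16.7 and 12.1% in Lck-cre replicates 5 to 8, against 28.5, 27.3, 29.4 and 26.7% in control replicates 1 to 4. The shares of these 2 light chains did not overlap between the groups and differed in opposite directions. Shares of 1 sum are tied, so a higher share of Slc7a5, which was chosen on this contrast, by itself lowers the others. In FPKM, Slc7a11 had 10.02 ± 2.35 in Lck-cre and 15.7 ± 1.10 in the controls. Slc7a6 held 49.3% ± 1.26 in Lck-cre and 51.6% ± 1.64 in the controls, the largest share in both groups. Slc7a7 and Slc7a8 each stayed under 2% of the sum in every sample, and Slc7a10 was listed at 0.

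**Figure D2:**
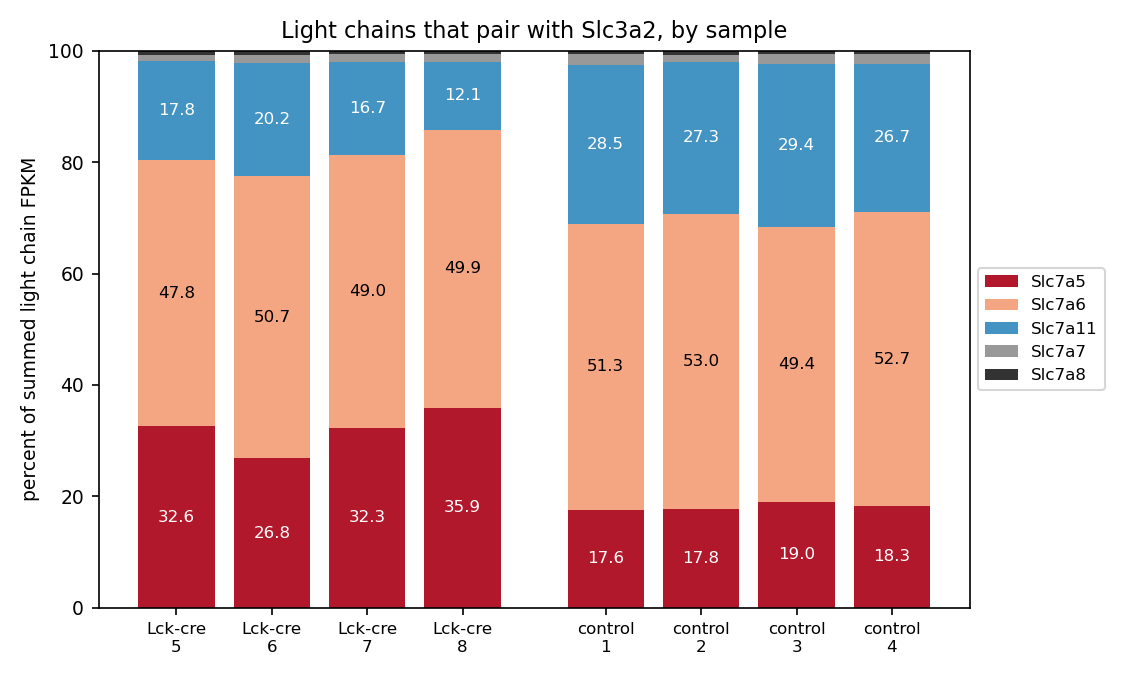
Share of each light chain gene in the summed FPKM of the 6 light chains that pair with Slc3a2, in percent, with Lck-cre samples placed before controls. The share of Slc7a5 was 26.8 to 35.9% in Lck-cre, against 17.6 to 19.0% in the controls, and the share of Slc7a11 was 12.1 to 20.25% in Lck-cre, against 26.7 to 29.4% in the controls.

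Slc7a1 (CAT1; ENSMUSG00000041313.15, chromosome 5, 148264220 to 148336714 on the minus strand), a carrier of arginine and lysine that works without a heavy chain, was the lowest of the tested members. It had 11.7, 8.48, 9.70 and 12.0 FPKM in Lck-cre replicates 5 to 8, against 5.67, 7.53, 6.93 and 7.24 FPKM in control replicates 1 to 4. The groups did not overlap, although Lck-cre replicate 6 came close to control replicate 2. The means were 10.5 ± 1.68 FPKM in Lck-cre and 6.84 ± 0.818 FPKM in the controls, a ratio of 1.53 and a log2 difference of 0.57 with an SE of 0.129. Under the 17 alternatives the log2 difference was 0.44 to 0.68, and the call was lost under 4 of them.

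The glutamine and small neutral amino acid carriers include the most abundant members, and the groups overlapped in the 3 of them that were tested. Slc38a2 (SNAT2; ENSMUSG00000022462.8, chromosome 15, 96585273 to 96597611 on the minus strand), a sodium-coupled carrier known to be induced when amino acids are scarce, had 169, 145, 139 and 181 FPKM in Lck-cre replicates 5 to 8. The controls, replicates 1 to 4, had 127, 135, 142 and 145 FPKM. Lck-cre replicates 5 and 8 lay above all controls and the other two lay within or next to the control range. The log2 difference was 0.20 with an SE of 0.095 and a 95% interval of -0.01 to 0.42. Slc38a1 (SNAT1; ENSMUSG00000023169.16, 96469299 to 96540794) lies 44478 bases away on the same strand. It had 46.9, 38.0, 41.6 and 47.2 FPKM in Lck-cre, against 38.6, 42.0, 40.0 and 40.8 FPKM in the controls. It was again highest in Lck-cre replicates 5 and 8, and its log2 difference was 0.10 with an SE of 0.080. Slc38a2 stood 3.65 ± 0.227 times above Slc38a1 in Lck-cre and 3.40 ± 0.169 times above it in the controls.

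Slc1a5 (ASCT2; ENSMUSG00000001918.18, chromosome 7, 16515265 to 16532199 on the plus strand), an exchanger of glutamine, serine and alanine, had 105, 126, 102 and 109 FPKM in Lck-cre replicates 5 to 8, against 134, 124, 106 and 136 FPKM in control replicates 1 to 4. The groups overlapped, with a mean of 110.7 ± 10.9 FPKM in Lck-cre and 124.9 ± 13.8 FPKM in the controls. Its log2 difference of -0.17 had an SE of 0.1 and a 95% interval of -0.40 to 0.05, and it was below 0 under all 17 alternatives. Slc1a4 (ASCT1; ENSMUSG00000020142.13, chromosome 11, 20252180 to 20282713 on the minus strand), its relative with a preference for alanine, serine and cysteine, was near the bottom of the measured range. It had 0.419, 0.298, 0.301 and 0.355 FPKM in Lck-cre replicates 5 to 8, against 0.168, 0.196, 0.160 and 0.261 FPKM in control replicates 1 to 4. The groups did not overlap, at a mean of 0.343 ± 0.0571 FPKM in Lck-cre and 0.196 ± 0.0460 FPKM in the controls. With no filter on low values, its log2 difference was 0.28 with an SE of 0.070 on a scale that understates changes at such levels.

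The lysosomal arginine sensor Slc38a9 (ENSMUSG00000047789.6, chromosome 13, 112797285 to 112875283 on the plus strand) was lower in every Lck-cre sample than in any control. It had 17.45, 15.6, 12.0 and 15.1 FPKM in Lck-cre replicates 5 to 8, against 22.7, 20.8, 18.1 and 18.5 FPKM in control replicates 1 to 4. The separation also held in TPM and coverage. The means were 15.0 ± 2.25 FPKM in Lck-cre and 20.0 ± 2.16 FPKM in the controls, a ratio of 0.751 and a log2 difference of -0.41 with an SE of 0.092. Under the 17 alternatives the log2 difference was -0.49 to -0.33, and the call was lost under 5 of them. The files list the predicted gene Gm47827 on the opposite strand over 16558 bases of Slc38a9, at 6.07 ± 1.053 FPKM in Lck-cre and 8.05 ± 1.18 FPKM in the controls. Whether the counting used strand is not stated in the labels or headers, and without it reads of these overlapping genes cannot be told apart.

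Besides the 4 called members, Slc1a4 also had groups that did not overlap in FPKM, which makes 5 of the 9 members with no overlap. Among all tested genes the groups did not overlap in 29.4%, and nothing is read from the members' count.

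**Figure D3:**
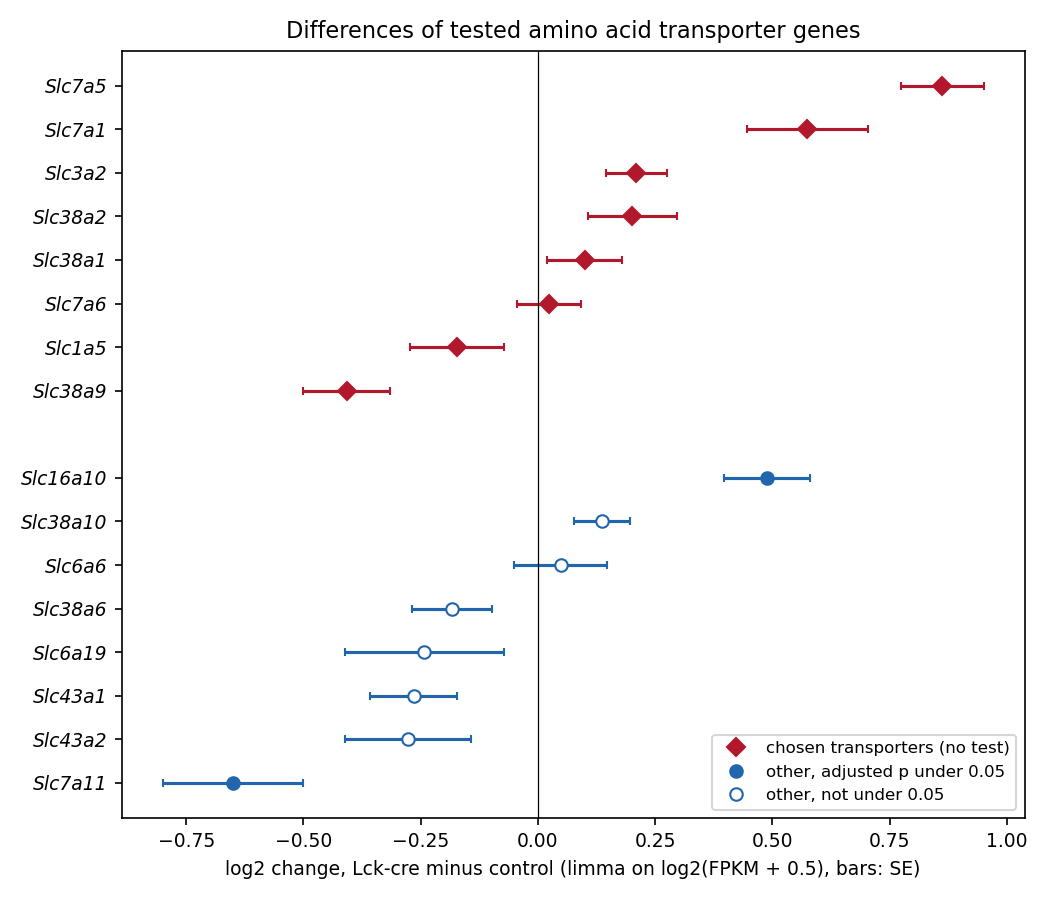
Fitted log2 difference, Lck-cre minus control, of the 8 tested members (red, upper rows) and of the 8 other tested amino acid transporter genes of the SLC families (blue, lower rows) on the log2(FPKM + 0.5) scale, with bars of 1 SE. The members carry no test, and filled blue points have an adjusted p under 0.05 by limma over 12337 genes. Among the members Slc7a5 stands highest at 0.86 and Slc38a9 lowest at -0.41, and Slc7a11 lies lowest of the others at -0.65.

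Within the Lck-cre group the samples did not share 1 level. Slc7a5, Slc7a1, Slc38a1, Slc38a2 and Slc1a4 were each highest in replicates 5 and 8, of which replicate 5 is the group's only female. Sting1 was also highest in replicates 5 and 8, at 221 and 232 FPKM, and so was the transcription factor Myc, at 29.9 and 29.8 FPKM. Myc had 17.5 and 18.7 FPKM in Lck-cre replicates 6 and 7 and 11.8 to 14.3 FPKM in the controls. The other 4 members departed from this order. Slc3a2 had 65.0 FPKM in replicate 7 and 58.1 FPKM in replicate 8, Slc1a5 and Slc7a6 were highest in replicate 6, and Slc38a9 was highest in replicate 5 and next highest in replicate 6. Of 10 markers of cycling thymocytes, 9 were called as higher in Lck-cre, and their summed level was 1223, 1056, 1231 and 1407 FPKM in Lck-cre replicates 5 to 8, against 655, 830, 861 and 938 FPKM in control replicates 1 to 4. Of 8 double positive markers, 3 were called as lower (Cd4, Rag1 and Rag2) and none as higher. Over all tested genes, 15.4% were called as higher and 10.4% as lower. The 5 markers of double negative thymocytes summed to 17.75, 10.3, 12.5 and 16.1 FPKM in Lck-cre replicates 5 to 8, against 13.1, 8.997, 8.91 and 8.17 FPKM in control replicates 1 to 4, again highest in Lck-cre replicates 5 and 8. Of the 3 tested, Dtx1 was called as higher (log2 difference 0.71, adjusted p by limma 0.00985), while Il2ra had 4.03, 2.08, 3.47 and 5.15 FPKM in Lck-cre and 3.26, 1.81, 2.27 and 1.31 FPKM in the controls. Cd44, also tested, went the other way, at 2.19, 2.16, 2.12 and 1.45 FPKM in Lck-cre replicates 5 to 8. In control replicates 1 to 4 Cd44 had 2.93, 2.26, 2.48 and 2.37 FPKM (log2 difference -0.29, adjusted p by limma 0.105). Of 5 markers of mature single positive cells, with sums of 61.1 to 72.6 FPKM in Lck-cre and 71.3 to 75.7 FPKM in the controls, 3 were tested and Klf2 was called as higher (log2 difference 0.92, adjusted p by limma 0.0300). Markers of dendritic cells summed to 3.28 to 10.2 FPKM in Lck-cre, against 1.34 to 1.56 FPKM in the controls. Of these 6 markers, 2 were tested, and both, H2-Aa and Cd74, were called as higher. Macrophage or monocyte markers summed to 10.5 to 14.9 FPKM in Lck-cre, against 8.44 to 9.05 FPKM in the controls. Of these 5 markers, 2 were tested. Cd68 was called as higher and Itgam was not called (log2 difference -0.027, adjusted p by limma 0.875). The part of Sting1, Myc, sex and these marker genes in the transporters' differences between samples or groups was not tested.

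**Figure D4:**
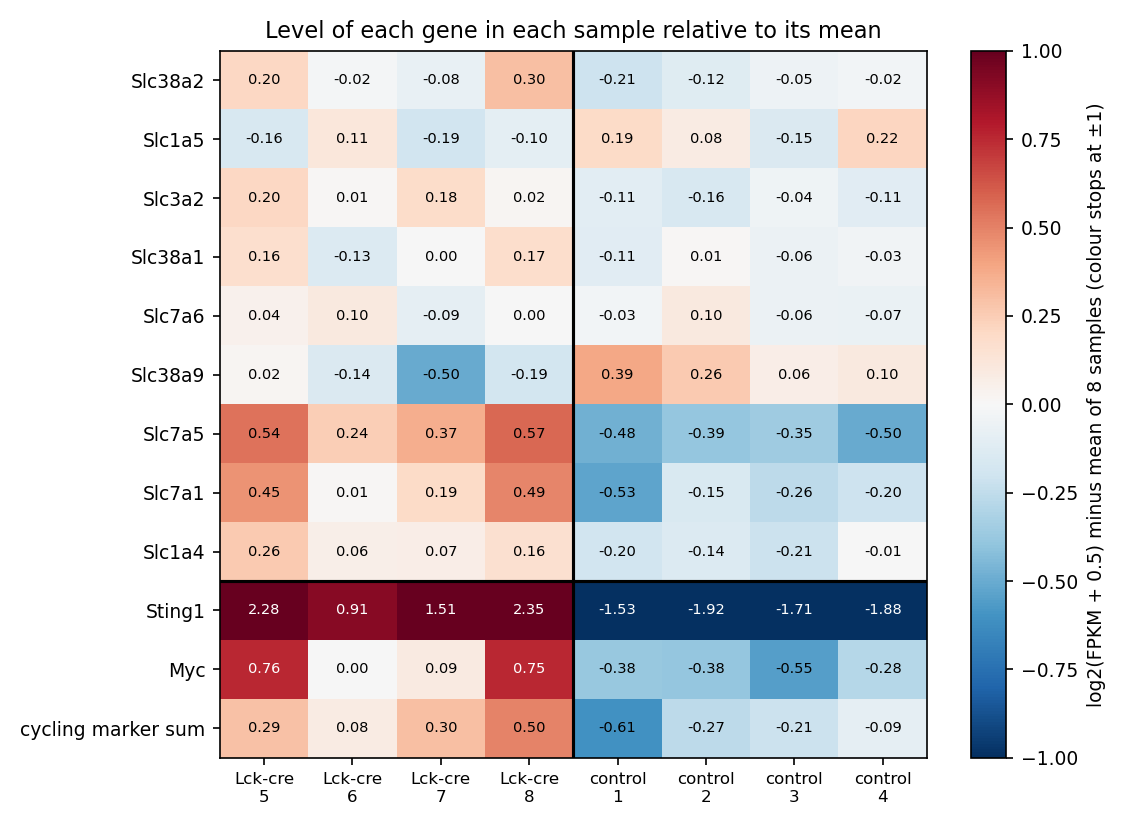
Level of each member in each sample as log2(FPKM + 0.5) centred on the gene's mean over the 8 samples, with the colour scale ending at 1 in either direction and Lck-cre samples before controls. Rows below the line show Sting1, Myc and the summed cycling markers on the same scale. Slc7a5 and Slc7a1 are above their means in every Lck-cre sample, and Slc38a9 is above its mean in every control.

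Profiles were compared by the root mean square difference of these centred log2 values over the 8 samples. Among 10504 named genes that are not members, the nearest to Slc7a5 were Ccne1 at 0.0723, which encodes cyclin E1 of the G1 to S transition, Cdca7l at 0.0742 and Trdc at 0.0796, the constant segment of the T cell receptor delta chain. Ccne1 had 24.5 ± 3.26 FPKM in Lck-cre and 14.2 ± 1.25 FPKM in the controls. Cdca7l had 11.55 ± 1.69 FPKM in Lck-cre and 6.47 ± 0.458 FPKM in the controls, and Trdc had 52.2 ± 9.05 FPKM in Lck-cre and 27.2 ± 1.045 FPKM in the controls. The nearest member was Slc7a1, at rank 188 of 12336 tested genes, while the heavy chain Slc3a2 stood at rank 2440. For Slc38a2, the member with the highest mean, the nearest genes were Trappc13 at 0.0466, Zik1 at 0.0467 and Mbd4 at 0.0470, and Slc38a1 stood at rank 135.

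Of 142 other genes of amino acid transport, sensing and use, in 7 lists, 92 were tested and 31 were called, 21 higher and 10 lower in Lck-cre. This is 33.7% of those tested, against 25.8% of all tested genes, and their median log2 difference was 0.07, against 0.01. With TPM the split was 15 higher and 14 lower. In males only, 8 of the 92 were called, where 5.28% of all tested genes were. Without the filter on low values, 125 genes of the lists were tested and 14 were called, where 3.66% of all genes tested were.

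Of 40 other amino acid transporter genes of the SLC families, 8 were tested and 15 were listed at 0 in every sample. Slc16a10 (TAT1), an exporter of aromatic amino acids, rose to 8.78 ± 1.56 FPKM in Lck-cre, against 6.06 ± 0.506 FPKM in the controls (log2 difference 0.49, SE 0.092, adjusted p by limma 0.0105). Slc7a11 fell, with 11.2, 12.5, 9.31 and 7.08 FPKM in Lck-cre replicates 5 to 8, against 15.9, 16.1, 16.7 and 14.1 FPKM in control replicates 1 to 4 (log2 difference -0.65, SE 0.150, adjusted p by limma 0.0170). These 2 were the called genes of this list, at 25% of those tested, against 25.8% of all tested genes. Both calls were lost in males only, with an adjusted p by limma of 0.0526 for Slc16a10 and 0.0544 for Slc7a11. Of 9 lysosomal exporters of amino acids and peptides, 7 were tested and 0 were called by limma, 1 of them with an unadjusted p under 0.05. The most abundant of them, the histidine and peptide carrier Slc15a4, had 14.3 ± 0.188 FPKM in Lck-cre and 13.6 ± 1.60 FPKM in the controls, with an adjusted p by limma of 0.484.

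Among 9 tested mitochondrial amino acid carriers, 3 were called as higher and 1 as lower, at 44.4% called, against 25.8% of all tested genes. The ornithine carrier Slc25a15 rose to 4.86 ± 0.341 FPKM in Lck-cre, against 3.13 ± 0.189 FPKM in the controls (log2 difference 0.56, SE 0.088, adjusted p by limma 0.0075), and kept its call under all 17 alternatives. Sfxn1, the mitochondrial serine carrier, rose to 12.96 ± 1.38 FPKM in Lck-cre, against 9.06 ± 0.799 FPKM in the controls (adjusted p by limma 0.0119, and 0.0530 in males only). Slc25a13, an aspartate and glutamate exchanger, rose to 1.998 ± 0.371 FPKM in Lck-cre, against 1.33 ± 0.176 FPKM in the controls, with groups that overlapped and a call that was lost under 11 alternatives (adjusted p by limma 0.0445, and 0.153 without control replicate 1). Sfxn3, a relative of Sfxn1, fell to 16.6 ± 2.57 FPKM in Lck-cre, against 23.7 ± 4.04 FPKM in the controls, also with groups that overlapped (adjusted p by limma 0.0326, and 0.133 in males only).

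The 34 tested genes of mTORC1 and of the amino acid sensing upstream of it were called in both directions, 4 higher and 6 lower. This is 29.4% of those tested, near the 25.8% of all tested genes, with a median log2 difference of 0.04. With TPM, 1 was higher and 7 were lower, and the median was -0.04. Sec13, a GATOR2 subunit that is also part of the secretory coat, rose to 75.98 ± 7.55 FPKM in Lck-cre, against 62.02 ± 2.27 FPKM in the controls (adjusted p by limma 0.0226). The small GTPase Rheb, the direct activator of mTORC1, rose to 28.35 ± 0.877 FPKM in Lck-cre, against 24.1 ± 1.17 FPKM in the controls (adjusted p by limma 0.0234, and 0.0800 with TPM). Lamtor5, a subunit of the Ragulator scaffold that anchors the Rag GTPases, rose to 40.99 ± 3.37 FPKM in Lck-cre, against 34.1 ± 2.01 FPKM in the controls (adjusted p by limma 0.0358, and 0.0944 with TPM). Bmt2 (SAMTOR), a sensor of S-adenosylmethionine, fell to 2.85 ± 0.183 FPKM in Lck-cre, against 4.06 ± 0.289 FPKM in the controls (log2 difference -0.44, SE 0.091, adjusted p by limma 0.0127). The arginine sensor family member Castor2 fell to 4.60 ± 0.457 FPKM in Lck-cre, against 5.998 ± 0.275 FPKM in the controls (adjusted p by limma 0.0216). In males only, 0 of the 34 genes were called by limma, where 5.28% of all tested genes were, and 11 had an unadjusted p under 0.05. Leaving out either female gave the same counts, which is no separate check, because the sex term absorbs the female that remains.

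The amino acid response is the route through which the kinase GCN2 and the factor ATF4 act on transport and synthesis genes. Of its 12 tested genes, 7 were called as higher and none as lower. That is 58.3% called, against 25.8% of all tested genes, with a median log2 difference of 0.39. The 4 that tied for the smallest adjusted p, 0.0075 by limma, are enzymes of serine and one-carbon metabolism, and all kept their calls under all 17 alternatives. Phgdh, the first enzyme of serine synthesis, rose to 108.9 ± 16.9 FPKM in Lck-cre, against 61.5 ± 6.88 FPKM in the controls (log2 difference 0.81, SE 0.113). Psat1, the next enzyme of that route, rose to 29.35 ± 3.42 FPKM in Lck-cre, against 17.5 ± 2.52 FPKM in the controls (log2 difference 0.73, SE 0.108). Shmt2, which splits serine in mitochondria, had the largest difference of the 4 and rose to 53.6 ± 9.98 FPKM in Lck-cre, against 29.2 ± 3.77 FPKM in the controls (log2 difference 0.86, SE 0.132). Mthfd2, a mitochondrial folate enzyme, rose to 22.85 ± 2.88 FPKM in Lck-cre, against 13.3 ± 2.06 FPKM in the controls (log2 difference 0.76, SE 0.114). Atf4 itself had 96.55 ± 2.81 FPKM in Lck-cre and 91.2 ± 9.18 FPKM in the controls, with an adjusted p by limma of 0.437. Eif2ak4 (GCN2), Atf5, Ddit3 and Ddit4 were not called either, with log2 differences of 0.155, 0.084, 0.072 and -0.126. In males only, 5 of the 12 were called as higher, where 5.28% of all tested genes were called.

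Genes that use glutamine, leucine and arginine inside the cell were called in 7 of 16 cases, 5 higher and 2 lower. This is 43.8% of those tested, against 25.8% of all tested genes, with a median log2 difference of 0.23. Bcat1, the cytosolic enzyme that removes the amino group from leucine, had 2.29, 2.27, 2.38 and 3.48 FPKM in Lck-cre replicates 5 to 8, against 0.736, 1.08, 1.12 and 1.59 FPKM in control replicates 1 to 4. It rose by a log2 difference of 0.94 with an SE of 0.157 (adjusted p by limma 0.00822), while its mitochondrial counterpart Bcat2 fell to 66.4 ± 8.75 FPKM in Lck-cre, against 86.02 ± 2.70 FPKM in the controls (log2 difference -0.38, SE 0.089, adjusted p by limma 0.0180). Got2, the mitochondrial aspartate aminotransferase, rose to 51.7 ± 2.70 FPKM in Lck-cre, against 38.8 ± 2.40 FPKM in the controls (adjusted p by limma 0.00798). Ass1, which makes argininosuccinate on the way to arginine, rose to 12.8 ± 2.11 FPKM in Lck-cre, against 8.04 ± 0.886 FPKM in the controls (adjusted p by limma 0.0108). Glul, which makes glutamine from glutamate, fell to 52.3 ± 6.39 FPKM in Lck-cre, against 64.0 ± 0.911 FPKM in the controls (adjusted p by limma 0.0383, lost under 9 alternatives). In males only, 2 of the 16 genes were called, both higher, where 5.28% of all tested genes were called. Among 6 genes known to regulate the transporters, Myc was the one called, at 23.97 ± 6.82 FPKM in Lck-cre and 13.2 ± 1.04 FPKM in the controls (log2 difference 0.80, SE 0.165, adjusted p by limma 0.0129, and 0.0608 in males only).

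**Figure D5:**
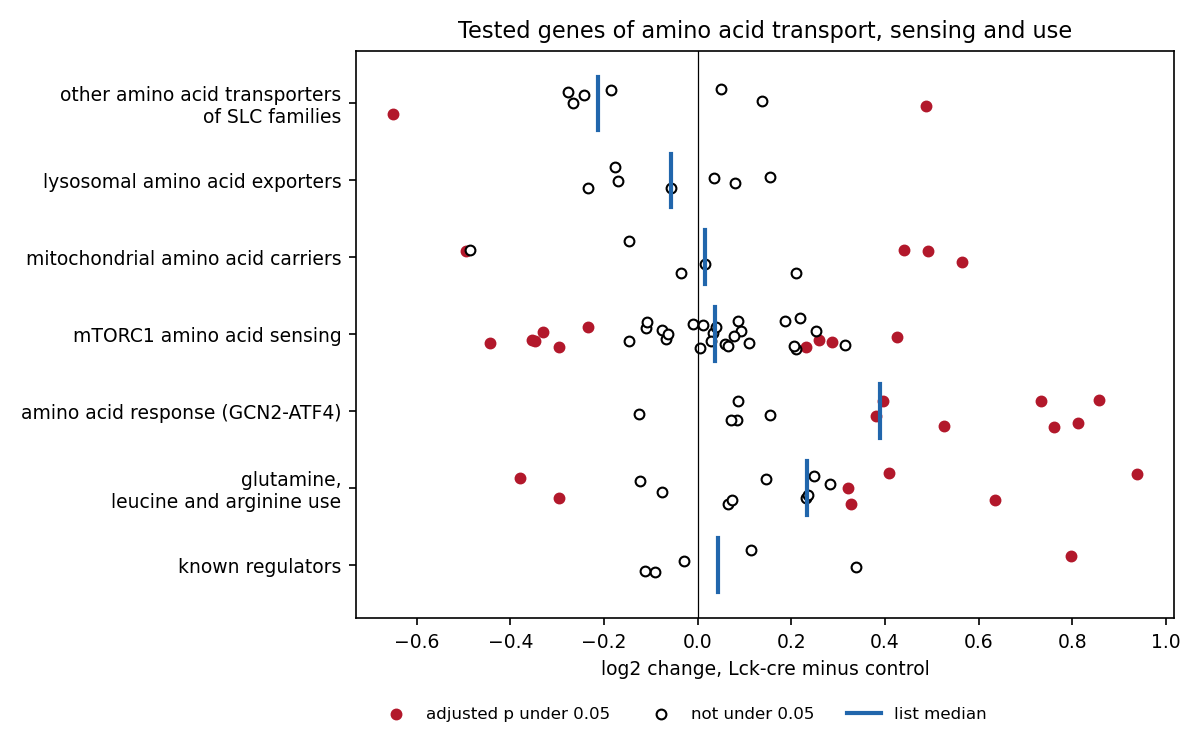
Fitted log2 difference, Lck-cre minus control, of every tested gene in the 7 lists of other amino acid genes, 1 row a list, with a line at each list's median; filled points have an adjusted p under 0.05 by limma over 12337 genes. The amino acid response list has 7 called genes, all higher in Lck-cre, while the mTORC1 sensing list has 4 higher and 6 lower. These are 58.3% and 29.4% of the tested genes of each list, against 25.8% of all tested genes.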

How the data were processed

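Per the labels' protocols, total RNA of the 8 samples was column-purified and sent to a sequencing company. The authors used HISAT and Bowtie2, per the submitters' processing notes, and no source used here gives their versions, the genome build, the annotation or the strandedness. The deposited tables, 1 per sample, hold FPKM, TPM and a coverage signal per gene, per the file headers. Coverage per FPKM differed between members, from 1.11 to 7.89, and coverage was used only to see whether groups overlapped. Without counts, depth and counting error are unknown and no count-based test was possible.

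Values of entries that share a gene ID were summed. Pearson correlations of log2 values within a group were 0.983 to 0.992, and at most 2 genes had identical values in a pair of samples. A gene was tested if 4 or more samples reached 1 FPKM. limma 3.58.1 (R 4.3.3) was fitted to log2(FPKM + 0.5), two-sided, on sex and genotype, with a variance trend. The fit was tested on simulated data. Summaries used Python 3.11.15 and pandas 2.3.3. The 17 alternatives were quantile normalization, TPM, median-of-ratios scaling, a pseudocount of 0.1 or 1, all genes above 0 in place of the filter, a mean FPKM of 1 or more, a fit without sex, males alone, and each sample left out. Males alone and leaving out either female give the same log2 differences, because the sex term absorbs a single female. Counts of alternatives therefore include these fits as if they were separate.

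Members and lists were chosen with earlier results of these data known. Named genes were all members, Sting1, the 3 called genes with the smallest adjusted p in each direction of each list, ties included (or, where none was called, the most abundant), and the 3 nearest profiles. Atf4, Eif2ak4, Atf5, Ddit3 and Ddit4 were named besides, after their values were seen. A gene that the rule names is not reported here. Promoter sequences are those of RefSeq on GRCm38.p6. Their coordinates and those of the files are not on a shared, named build and were not compared.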

Additional observations from a re-analysis of the deposited data

Results flagged for a closer look

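The 4 samples of each group were examined for a single sample far from the other 3 in 39 named genes, which gave 78 groups, and 1 was found. Bcat1 had 3.48 FPKM in Lck-cre replicate 8, while the other Lck-cre samples had 2.27 to 2.38 FPKM, so the gap to the nearest sample was a share of 0.911 of the group's range, above Dixon's 95% critical value for 4 samples. Chance alone flags about 1 in 20 groups. Lck-cre replicate 8 also had the highest Sting1, at 232 FPKM, and the highest summed level of cycling markers, at 1407 FPKM, and the part of either in the Bcat1 value was not tested.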

How the results depend on the processing

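The number of genes called, 3180 in the analysis reported, was 1056 without the filter on low values, 652 in males only, and 647 to 3889 with each sample left out. Calls among members, 4 as reported, were 1 without the filter, 1 in males only, and 1 to 4 with each sample left out. Calls among the other amino acid genes, 31 as reported, were 14 without the filter, 8 in males only, and 8 to 37 with each sample left out. The lowest counts came without control replicate 1 or Lck-cre replicate 5, the females, which leaves 1 female whose sex term absorbs it. Without control replicate 2, Lck-cre replicate 7 or Lck-cre replicate 8, 15, 17 and 20 of the other amino acid genes were called, and 2, 3 and 3 members. Of 136 log2 differences of members under alternatives, 3 changed sign. The sign changes were in Slc7a6, at -0.01 with quantile normalization, -0.05 with TPM and -0.008 without Lck-cre replicate 6, against a range of -0.008 to 0.064 with each sample left out. Slc15a4 changed sign to -0.001 in males only, and reached 0.123 without control replicate 3. Leaving out control replicate 1 or Lck-cre replicate 5 gave the same -0.001, because the sex term absorbs the female that remains. The cause of the sign changes was not tested. Median-of-ratios scaling, TPM and quantile normalization each moved the median of all genes by under 0.1 (log2). Depth is unknown, so the precision at low values such as those of Slc1a4 cannot be stated. No paired analysis was possible because the groups share no replicate numbers.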

Other observations

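Several plasma membrane carriers outside the 9 members were more abundant than Slc7a5 and Slc7a1. They were picked after their values were seen, and none passed the test. Slc43a2 (LAT4), a carrier of branched-chain amino acids that needs no heavy chain, had 71.1, 83.1, 77.8 and 51.0 FPKM in Lck-cre replicates 5 to 8, against 88.0, 84.5, 82.2 and 83.3 FPKM in control replicates 1 to 4. Replicate 8 was the lowest of the 8 samples, the groups overlapped, and the adjusted p by limma was 0.152. Slc43a1 (LAT3), its relative, had 44.3 ± 4.64 FPKM in Lck-cre and 53.3 ± 5.54 FPKM in the controls (SD, n = 4 each; adjusted p by limma 0.0617). The taurine carrier Slc6a6 had 37.8 ± 4.76 FPKM in Lck-cre and 36.4 ± 3.05 FPKM in the controls (adjusted p by limma 0.740). Slc6a19, a neutral amino acid carrier best known from gut and kidney, had 29.5 ± 6.87 FPKM in Lck-cre and 34.9 ± 6.77 FPKM in the controls (adjusted p by limma 0.303). Asns, which makes asparagine and belongs to the amino acid response, reached at most 0.126 FPKM in any sample and was not tested.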
